A study of Ovis aries with 115 samples.

Results

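Serum amyloid A 1 (SAA1) was represented in the cervical RNA-sequencing counts by 2 of the 27054 Ensembl identifiers, ENSOARG00000009847 and ENSOARG00000009865, which are the identifiers that the study's tables name SAA1. They are called copies here, and both passed the filter on low counts. The names came from genes that differed between Suffolk and the Norwegian breeds in synchronised follicular ewes, so the copies were selected on their fold changes in those ewes, which are described without a test.

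Serum amyloid A proteins are small apolipoproteins of the acute-phase response. The liver releases them in large amounts when interleukin-6, interleukin-1 and tumour necrosis factor act through NF-kB, STAT3 and C/EBP factors, and they then travel on high-density lipoprotein (HDL). Epithelial cells also make serum amyloid A at mucosal surfaces, where it binds bacterial surfaces and attracts neutrophils through receptors such as FPR2. Mammals carry several closely similar serum amyloid A genes, so short reads can match more than 1 of them.

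Mid-cervix tissue was collected post mortem from adult multiparous ewes of 4 breeds in 3 states. Belclare and Suffolk ewes were kept in Ireland, and FUR (here Fur) and Norwegian White Sheep (NWS, labelled Norwegian) ewes in Norway, and country therefore cannot be told apart from breed across these pairs. The synchronised (labelled induced) follicular phase, after a progestagen sponge and equine chorionic gonadotropin, had 10 Belclare, 11 Suffolk, 8 Fur and 10 NWS ewes. The natural follicular phase, with no synchronising treatment, had 10, 8, 10 and 10 ewes, and the luteal phase of a synchronised (induced) cycle had 10, 10, 9 and 8. No luteal phase of a natural cycle was sampled, so a comparison of luteal with natural follicular ewes changes both phase and cycle type.

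Total counts ranged from 12238996 to 31261671 per ewe, with a median of 17835128, and no pair of libraries of 1 group agreed within counting noise. The epithelial markers CDH1 and MUC1 were detected in every ewe, as were the smooth muscle markers ACTG2 and DES. Of 6 smooth muscle identifiers, the summed level had group medians from 204 to 578 CPM (counts scaled to library size with TMM factors) in the 6 Irish groups and from 2427 to 6103 CPM in the 6 Norwegian groups, with single Belclare ewes reaching 13903 CPM. These genes were named from tables of genes that differed in synchronised follicular ewes, so this split is not independent evidence of tissue composition, and its part in the SAA1 results was not tested. In bulk tissue, fewer cells of a type and less RNA per cell cannot be told apart.

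Both copies were expressed in the cervix, at levels that varied widely between ewes of 1 group. Copy ENSOARG00000009847 had 7 to 3122 counts in each of the 114 ewes and exceeded 1 CPM in 108 of them. Copy ENSOARG00000009865 exceeded 1 CPM in 58 ewes and was at 3 counts or fewer in 15 ewes, of which 4 had 0 counts. A count of 0 allows up to 3 counts, for counting error only.

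**Figure D1:**
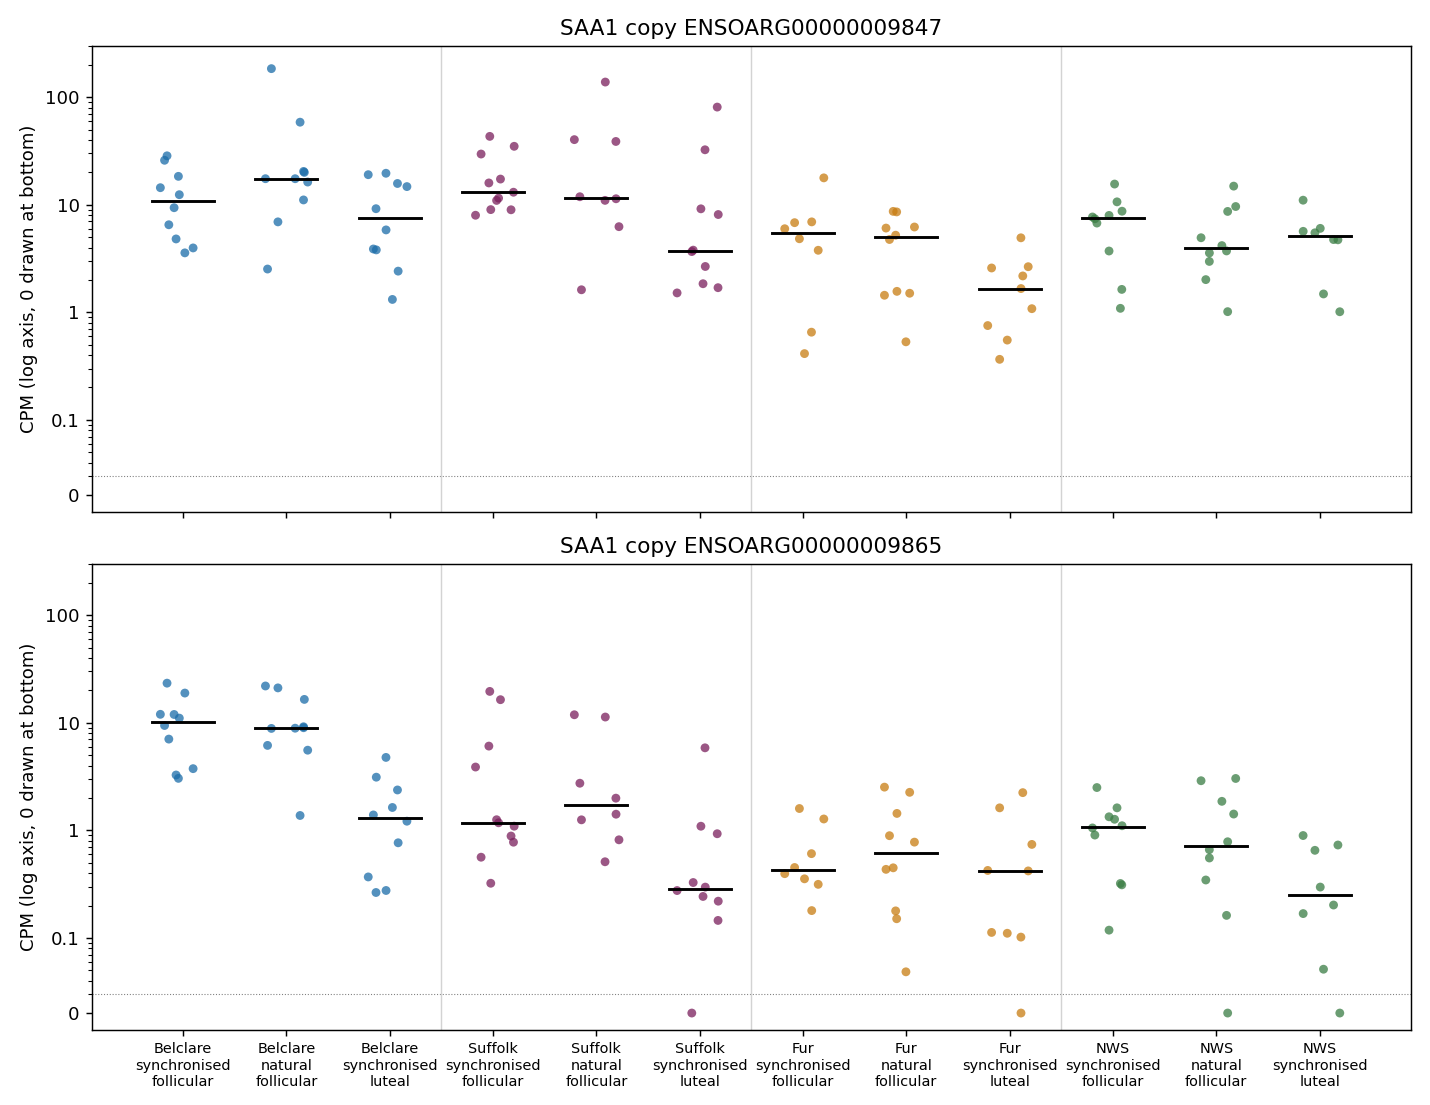
Level of each SAA1 copy in CPM on a log axis (values of 0 drawn at the bottom), with 1 point for each of the 114 ewes and a black line at the group median, by breed and state. ENSOARG00000009847 lay above 20 CPM in 14 ewes, all Belclare or Suffolk, and ENSOARG00000009865 had its 2 highest medians, 10.2 and 8.95 CPM, in follicular Belclare ewes.

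In synchronised follicular ewes, which chose the copies, ENSOARG00000009847 was lowest in Fur and highest in Suffolk. Its lowest, median and highest levels were 7.99, 13.1 and 43.3 CPM in Suffolk, 3.57, 10.9 and 28.5 CPM in Belclare, 1.09, 7.56 and 15.6 CPM in NWS and 0.413, 5.41 and 17.8 CPM in Fur. The ranges of all 4 breeds overlapped. Relative to Suffolk, fitted log2 fold changes were -1.64 ± 0.53 (SE) in Fur, -1.37 ± 0.40 in NWS and -0.53 ± 0.40 in Belclare.

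Copy ENSOARG00000009865 was highest in Belclare in this state. Its lowest, median and highest levels were 3.04, 10.2 and 23.4 CPM in Belclare, 0.322, 1.18 and 19.6 CPM in Suffolk, 0.118, 1.08 and 2.5 CPM in NWS and 0.179, 0.423 and 1.6 CPM in Fur. Every Belclare ewe was therefore above every NWS and Fur ewe. Suffolk ewes spread over both levels, with 2 ewes at 16.4 and 19.6 CPM and 5 at or below 1.09 CPM. Relative to Suffolk, fitted log2 fold changes were -2.83 ± 0.81 in Fur, -2.14 ± 0.71 in NWS and 1.15 ± 0.65 in Belclare.

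The natural follicular phase asked whether the breeds differed without synchronisation, in ewes outside the contrasts that named the copies. The copies were still chosen with earlier results of these data known. Both copies had lower expression in Fur than in Suffolk, and in Fur and NWS than in Belclare. Copy ENSOARG00000009847 had lowest, median and highest levels of 2.53, 17.5 and 185 CPM in Belclare, 1.62, 11.6 and 138 CPM in Suffolk, 0.532, 4.98 and 8.68 CPM in Fur and 1.01, 3.95 and 14.9 CPM in NWS. No Fur ewe reached the Suffolk median, and 6 of 8 Suffolk ewes lay above every Fur ewe. Copy ENSOARG00000009865 had levels of 1.37, 8.95 and 22 CPM in Belclare, 0.510, 1.70 and 11.9 CPM in Suffolk, 0.0484, 0.613 and 2.52 CPM in Fur and 0, 0.722 and 3.04 CPM in NWS. Of 10 Belclare ewes, 9 lay above every Fur ewe and above every NWS ewe.

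A differentially expressed gene (DEG) had an adjusted p under 0.05 in edgeR's quasi-likelihood test, adjusted over 14811 genes by the Benjamini-Hochberg method, and a fold change above 1.5. In Fur compared to Suffolk both copies were DEGs, where 9.62% of all genes were. ENSOARG00000009847 was 7.41-fold lower in Fur (log2 fold change -2.89 ± 0.69, SE, edgeR adjusted p = 0.00995), and ENSOARG00000009865 was 4.47-fold lower (-2.16 ± 0.70, adjusted p = 0.0378). The first value rested in part on Suffolk replicate 9 and was -1.98 without it (edgeR adjusted p = 0.0358). The second call was lost without any 1 of Fur replicates 1, 2, 3, 5, 6, 7, 8 or 9 or Suffolk replicates 2, 3 or 9, with log2 fold changes of -2.26 to -1.66 and edgeR adjusted p of 0.0505 to 0.114.

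Compared to Belclare, Fur had lower expression of both copies, where 15.7% of all genes were DEGs. ENSOARG00000009847 was 7.99-fold lower (log2 fold change -3.0 ± 0.67, edgeR adjusted p = 0.00142) and ENSOARG00000009865 was 11.9-fold lower (-3.58 ± 0.56, adjusted p = 7.1e-05). NWS also had lower expression of both copies than Belclare, where 13% of all genes were DEGs. ENSOARG00000009847 was 6.43-fold lower (-2.69 ± 0.64, edgeR adjusted p = 0.00665) and ENSOARG00000009865 was 9.20-fold lower (-3.20 ± 0.57, adjusted p = 0.00129). Belclare replicate 9 held the highest level of ENSOARG00000009847, and without it the values of that copy were -2.10 in Fur and -1.77 in NWS, with edgeR adjusted p of 0.00368 and 0.0196. These comparisons share Belclare or Suffolk ewes with each other.

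NWS compared to Suffolk had log2 fold changes of -2.55 ± 0.66 for ENSOARG00000009847 and -1.77 ± 0.71 for ENSOARG00000009865, and neither passed the test (edgeR adjusted p = 0.0593 and 0.179), where 0.993% of all genes were DEGs. The first became a DEG without Suffolk replicate 6 (-2.74, edgeR adjusted p = 0.0147) or replicate 7 (-2.68, adjusted p = 0.0412), and was -1.65 without replicate 9 (adjusted p = 0.173). Within Ireland and within Norway no difference passed. Belclare compared to Suffolk, whose sign for ENSOARG00000009847 turned without Belclare replicate 9 (-0.79) and whose value was 1.03 without Suffolk replicate 9, had 0.13 ± 0.79 and 1.44 ± 0.61 (edgeR adjusted p = 0.972 and 0.476), where edgeR called 0% of all genes, with 1442 at an unadjusted p under 0.05, and DESeq2 called 18. The second value passed an exact permutation test of log2 CPM (adjusted p = 0.0283 over the 18 comparisons of this copy). The edgeR value was adjusted over 14811 genes, so these adjusted values are not alike. Unadjusted, p was 0.0291 in edgeR and 0.0108 by permutation. NWS compared to Fur had 0.31 ± 0.48 and 0.37 ± 0.64 (edgeR adjusted p = 0.804 and 0.832), where 0.0338% of all genes were DEGs.

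In the synchronised luteal phase the breed differences were found for 1 copy at a time. Copy ENSOARG00000009847 had lowest, median and highest levels of 1.32, 7.52 and 19.6 CPM in Belclare, 1.52, 3.73 and 81.0 CPM in Suffolk, 0.365, 1.66 and 4.93 CPM in Fur and 1.01, 5.12 and 11 CPM in NWS. The Suffolk ewes lay mostly below 10 CPM, apart from 2 at 32.5 and 81.0 CPM. Copy ENSOARG00000009865 had levels of 0.264, 1.30 and 4.76 CPM in Belclare, 0, 0.286 and 5.85 CPM in Suffolk, 0, 0.419 and 2.24 CPM in Fur and 0, 0.249 and 0.895 CPM in NWS. At these levels the median ewe had 4.5 counts of this copy in Suffolk and 5 in NWS, against 22.5 in Belclare.

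ENSOARG00000009847 was 7.88-fold lower in Fur than in Suffolk (log2 fold change -2.98 ± 0.79, edgeR adjusted p = 0.00946), where 13.8% of all genes were DEGs, and -1.96 without Suffolk replicate 7 (adjusted p = 0.0246). It was 5.15-fold lower in Fur than in Belclare (-2.37 ± 0.55, edgeR adjusted p = 0.00237), where 16.3% of all genes were DEGs. ENSOARG00000009865 did not pass in either comparison, at -0.57 ± 0.82 and -1.34 ± 0.68 (edgeR adjusted p = 0.623 and 0.126), and the first was 0.64 without Suffolk replicate 4 (adjusted p = 0.514). The reverse held in NWS compared to Belclare, where 11.6% of all genes were DEGs. There ENSOARG00000009865 was 4.23-fold lower (-2.08 ± 0.66, edgeR adjusted p = 0.0286) and ENSOARG00000009847 did not pass (-0.93 ± 0.52, adjusted p = 0.191). Whether the copies differed from each other in these contrasts was tested on their ratio, and no such test passed.

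Neither copy passed in the remaining luteal comparisons. NWS compared to Suffolk had -1.52 ± 0.77 and -1.30 ± 0.83 (edgeR adjusted p = 0.230 and 0.350), where 4.35% of all genes were DEGs, with -0.52 for the first without Suffolk replicate 7 and -0.08 for the second without Suffolk replicate 4. Belclare compared to Suffolk had -0.60 ± 0.71 and 0.78 ± 0.71 (adjusted p = 0.630 and 0.515), where 2.43% of all genes were DEGs. Its first value turned sign without Suffolk replicate 7 (0.42) and its second was 1.98 without Suffolk replicate 4, and neither passed. NWS compared to Fur had 1.43 ± 0.49 and -0.75 ± 0.76 (adjusted p = 0.293 and 0.740), where 0.0405% of all genes were DEGs. Over both states, ENSOARG00000009847 was a DEG in 5 of 8 comparisons between an Irish and a Norwegian breed and ENSOARG00000009865 in 4 of 8. The sum of the copies was a DEG in 5 of 8 of these, and in 0 of 4 within a country by edgeR. Each copy was a DEG in 0 of 4 comparisons within a country by edgeR and by DESeq2. For each copy, 1 of the 4 had an unadjusted edgeR p under 0.05. Of all genes, edgeR called 0 to 2.43% within a country and 0.993 to 16.3% between countries. This split is therefore not particular to SAA1.

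**Figure D2:**
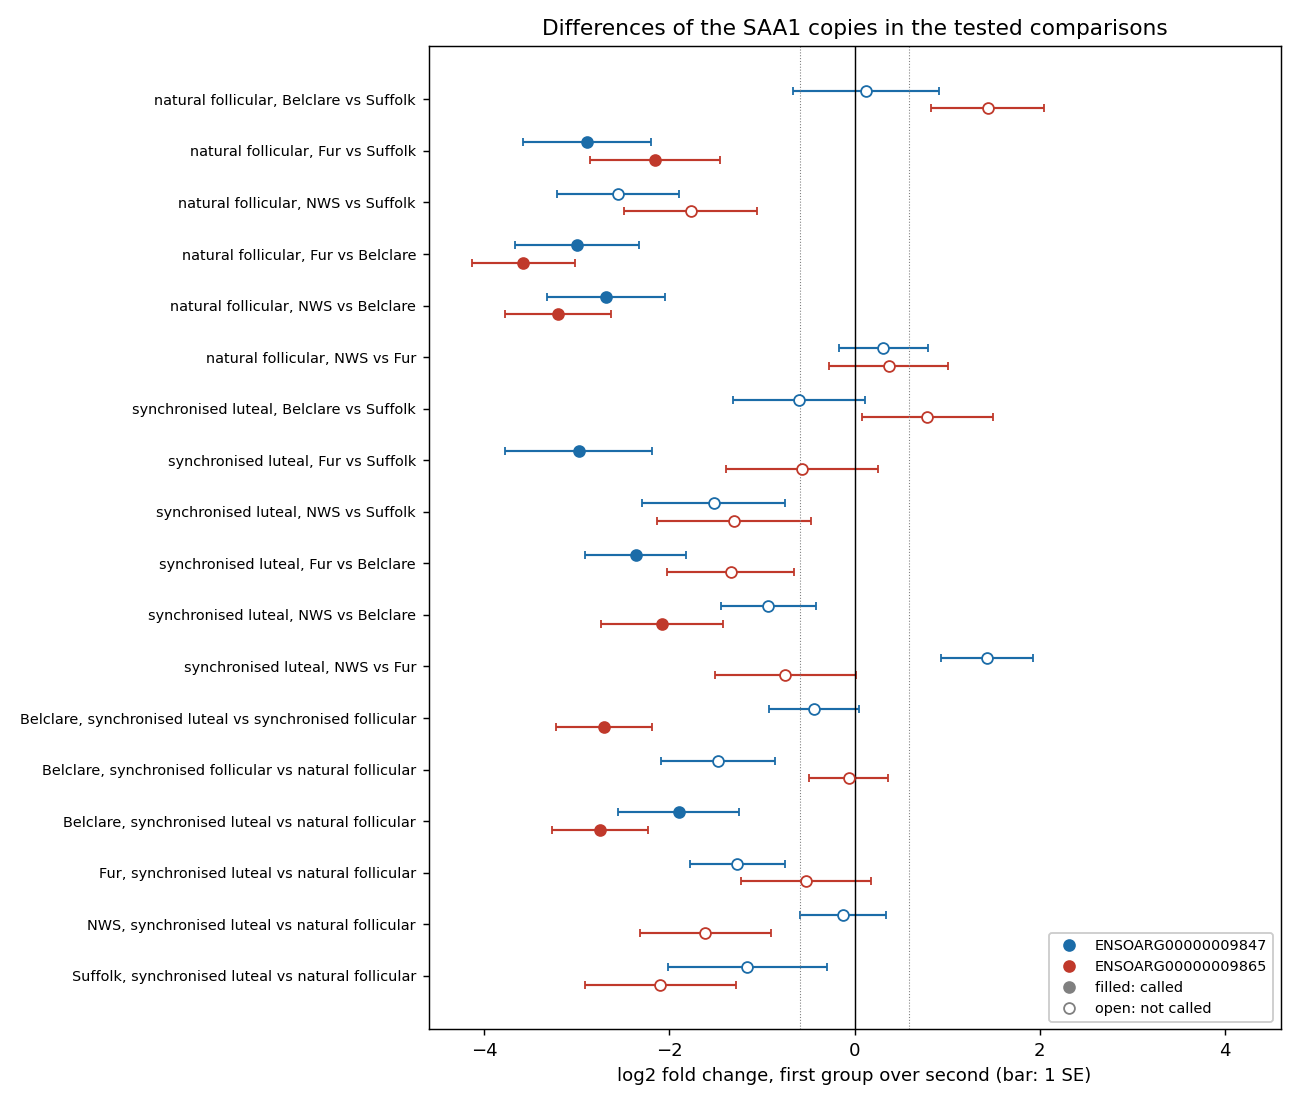
Log2 fold change of each SAA1 copy (horizontal axis, bars of 1 SE) in the 18 tested comparisons of 2 groups, filled where the copy was a DEG and open where it was not, with dotted lines at a 1.5-fold change. In natural follicular ewes both copies were filled for Fur compared to Suffolk and for Fur and NWS compared to Belclare. The comparisons within a country were open, where edgeR called 0 to 2.43% of all genes.

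The change of the breed difference between the luteal and natural follicular phases was tested as an interaction. Against Suffolk it was -0.11 ± 1.01 for ENSOARG00000009847 and 1.58 ± 1.11 for ENSOARG00000009865 in Fur (edgeR adjusted p = 0.971 and 0.491), where 1.23% of all genes passed. It was 1.03 ± 1.02 and 0.47 ± 1.15 in NWS (adjusted p = 0.907 and 0.972), where 0.0135% passed. In Belclare it was -0.72 ± 1.10 and -0.66 ± 0.96 (adjusted p = 0.853 and 0.846), where edgeR passed 0% of all genes and DESeq2 63 genes. With standard errors near 1 on the log2 scale, a change of the breed difference of that size was not detectable.

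The phases of the cycle were compared within breeds. Belclare ewes, whose synchronised follicular samples were outside the contrasts that named the copies, showed lower ENSOARG00000009865 in the luteal phase. The luteal ewes lay at 0.264 to 4.76 CPM and the synchronised follicular ewes at 3.04 to 23.4 CPM. Only 2 luteal ewes, at 3.12 and 4.76 CPM, reached into the follicular range. The copy was 6.51-fold lower (log2 fold change -2.70 ± 0.52, edgeR adjusted p = 0.000391), where 22.4% of all genes were DEGs. ENSOARG00000009847 was at -0.44 ± 0.49 (edgeR adjusted p = 0.492), with luteal and follicular medians of 7.52 and 10.9 CPM. The sum of the copies was lower in the luteal phase (-1.07 ± 0.40, edgeR adjusted p = 0.0386).

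Compared to natural follicular Belclare ewes, luteal Belclare ewes had lower expression of both copies, where 19.7% of all genes were DEGs. ENSOARG00000009865 was 6.72-fold lower (-2.75 ± 0.52, edgeR adjusted p = 0.000466) and ENSOARG00000009847 was 3.72-fold lower (-1.90 ± 0.65, adjusted p = 0.0264). The second call was lost without natural follicular replicate 9 (-0.97, edgeR adjusted p = 0.146), and the first was kept without it (-2.76, adjusted p = 0.000757). The synchronised and natural follicular phases of Belclare had log2 fold changes of -1.47 ± 0.62 and -0.07 ± 0.42 (synchronised over natural), and neither copy passed (edgeR adjusted p = 1.0 for both). The first value was -0.57 without natural follicular replicate 9. In that comparison 0% of all genes passed in edgeR and 0 in DESeq2, with 440 at an unadjusted DESeq2 p under 0.05.

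In the other breeds neither copy alone passed in edgeR between the luteal and natural follicular phases. The sum of the copies passed in Fur (log2 fold change -1.11 ± 0.40, edgeR adjusted p = 0.0308). The sum did not pass there in an exact permutation test (adjusted p = 0.0763 over 18 comparisons). It did not pass in NWS (-0.30 ± 0.48, edgeR adjusted p = 0.709) or Suffolk (-1.24 ± 0.84, adjusted p = 0.303). DESeq2 called ENSOARG00000009847 in Fur (adjusted p = 0.0296) and ENSOARG00000009865 in Suffolk (adjusted p = 0.0352). The latter also passed an exact permutation test (adjusted p = 0.0283 over 18 comparisons). The log2 fold changes of ENSOARG00000009847 and ENSOARG00000009865 were -1.27 ± 0.51 and -0.52 ± 0.71 in Fur (edgeR adjusted p = 0.0548 and 0.579), where 18.5% of all genes were DEGs. They were -0.13 ± 0.47 and -1.61 ± 0.71 in NWS (adjusted p = 0.884 and 0.131), where 9.11% were DEGs. In Suffolk they were -1.16 ± 0.86 and -2.10 ± 0.82 (adjusted p = 0.350 and 0.0734), where 12.7% were DEGs. Single ewes decided 3 of these values. ENSOARG00000009847 became a DEG in Fur without luteal replicate 4 (-1.60, edgeR adjusted p = 0.0203) and in Suffolk without luteal replicate 7 (-2.19, adjusted p = 0.0466), while it was -0.25 in Suffolk without natural follicular replicate 9. ENSOARG00000009865 became a DEG in Suffolk without luteal replicate 4 (-3.29, adjusted p = 0.00715).

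The order of the 12 group medians differed between the copies. For ENSOARG00000009847 it ran from 17.5 CPM in natural follicular Belclare ewes to 1.66 CPM in luteal Fur ewes, and the 4 highest medians belonged to the follicular Belclare and Suffolk groups. For ENSOARG00000009865 it ran from 10.2 CPM in synchronised follicular Belclare ewes to 0.249 CPM in luteal NWS ewes, with a step from 8.95 to 1.70 CPM after the second rank. For each copy, the ranges of all 11 pairs of neighbours in this order overlapped.

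The share of SAA1 counts on each copy shows how the copies moved against each other within a ewe, whatever their lengths. The percent on ENSOARG00000009865 had lowest, median and highest values of 14.2, 46.3 and 84.1% in synchronised follicular Belclare ewes, 2.29, 39.5 and 75.3% in natural follicular and 1.90, 16.3 and 55.3% in luteal Belclare ewes. In the 9 groups of the other breeds the median lay between 4.38 and 16.7%. More counts fell on ENSOARG00000009865 than on ENSOARG00000009847 in 11 ewes, of which 7 were Belclare, 4 Fur and none Suffolk or NWS.

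The log2 ratio of the copies was compared by exact permutation tests. In the 6 comparisons of a breed with Suffolk, natural follicular or luteal, no difference passed, and the lowest adjusted p was 0.284. Further comparisons were chosen after the values were seen, 9 in all. Of these, Belclare ewes had a log2 ratio of ENSOARG00000009865 to ENSOARG00000009847 that differed by -2.37 on average between the luteal and the synchronised follicular phase (luteal minus follicular, exact permutation test, two-sided, p = 0.00499, adjusted p = 0.0449). The other 8 did not pass. Read pairs that matched several places were dropped before counting, so the split of reads between such similar copies is uncertain, and differences in copy sequence between breeds were not tested.

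**Figure D3:**
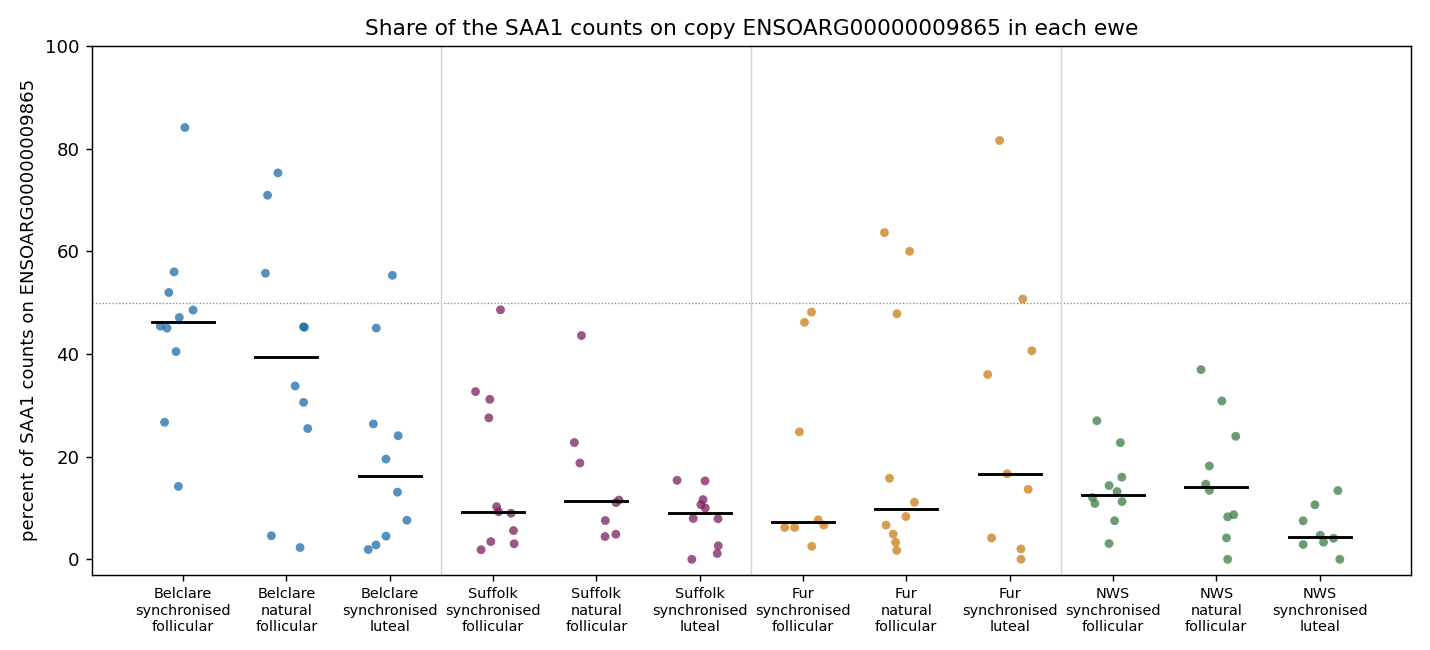
Percent of the SAA1 counts of each ewe that fell on ENSOARG00000009865 (vertical axis), with 1 point a ewe, black lines at the group medians and a dotted line at 50%. The medians of the follicular Belclare groups were 46.3 and 39.5%, and the medians of all other groups were 16.7% or lower.

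Across ewes of 1 group, no correlation of the copies passed after adjustment over the 12 groups, and Pearson's r ran from -0.311 to 0.856. Pearson's r was highest in luteal NWS ewes (8 ewes), with r = 0.856 (permutation p = 0.00469, adjusted over 12 groups 0.0562) and Spearman's rho = 0.643 (permutation p = 0.0962, adjusted 0.231). Without the 2 ewes farthest from the group median of ENSOARG00000009847, r was 0.470. Here and below, the level of the other copy did not decide which ewes were left out. Spearman's rho was highest in natural follicular Suffolk ewes (8 ewes), with rho = 0.857 (permutation p = 0.0107, adjusted 0.0666) and r = 0.734 (permutation p = 0.0384, adjusted 0.0923), and there r was 0.726 without the 2 farthest ewes. In natural follicular Belclare ewes r was -0.270 and rho was -0.176 (permutation p = 0.429 and 0.634, adjusted 0.572 and 0.760). Without the 2 farthest ewes r was -0.773 there. In natural follicular Fur ewes r was -0.190, and -0.818 without the 2 farthest, while in luteal Fur ewes it went from -0.311 to 0.144. Values without 2 ewes were not tested. The Belclare ewe with 185 CPM of ENSOARG00000009847 had 8.86 CPM of ENSOARG00000009865, near the group median of 8.95 CPM. Natural follicular Suffolk replicate 9, by contrast, was high in both copies, at 138 and 11.3 CPM.

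**Figure D4:**
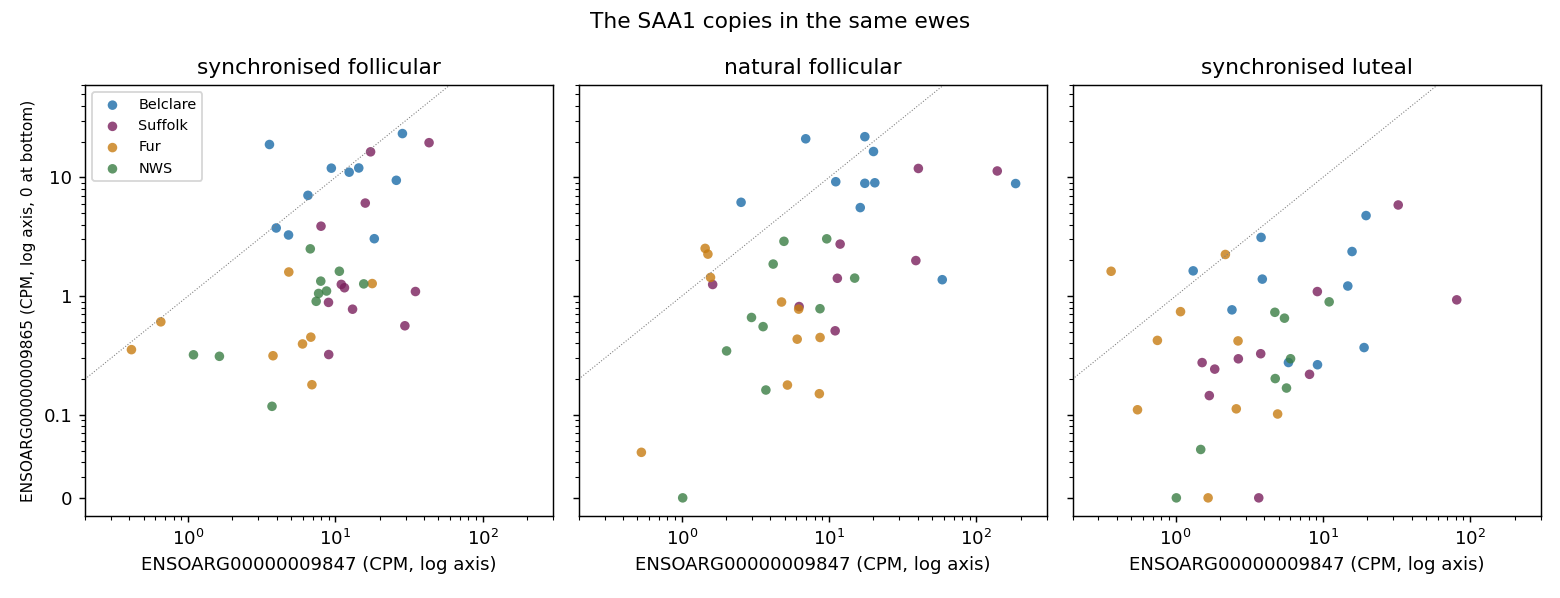
Level of ENSOARG00000009865 against ENSOARG00000009847 in the same ewe, both in CPM on log axes (0 drawn at the bottom), in 1 panel per state and coloured by breed, with a dotted line where the levels are equal. Belclare ewes made up 7 of the 11 ewes above the line, and the luteal panel held 1 of those 7.

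Other acute-phase plasma protein genes were counted beside the copies, from 15 identifiers of which 14 were tested. Identifiers could be named only where the study's tables name them, and these list mainly genes that differed in synchronised follicular ewes, so the lists below are not independent evidence of a direction. The acute-phase list was also not split by whether a protein rises or falls in that response. A lower gene in it is therefore not by itself a change in the same sense as lower SAA1. In natural follicular Fur compared to Suffolk ewes 1 of the 14 was lower, a share near that of all genes (752 of 14811 lower), with a median log2 fold change of -0.51 against -0.03 over all genes. That gene was RBP4, the plasma retinol carrier (-1.27 ± 0.29, edgeR adjusted p = 0.00793). In luteal Fur compared to Suffolk ewes 7 were lower and 1 higher (1096 and 954 of all 14811 genes), with a median of -0.85 against -0.02. The central complement component C3 was lower at both its identifiers (-2.14 ± 0.37 and -1.85 ± 0.33), as was the acute-phase glycoprotein gene ORM2 (-3.05 ± 1.0), while the protease inhibitor A2M was higher (4.76 ± 0.62).

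Compared to Belclare, natural follicular Fur ewes had 4 of the 14 acute-phase genes lower, and NWS ewes 3, beside 1056 and 696 of all 14811 genes. The siderophore-binding protein gene LCN2 was among them in both, at -1.91 ± 0.33 in Fur and -1.15 ± 0.31 in NWS. In luteal Fur compared to Belclare ewes 5 were lower and 1 higher, beside 1104 and 1305 of all genes. In Belclare, 6 were lower and 1 higher in the luteal than in the synchronised follicular phase. The largest of these changes was in the thyroid hormone carrier TTR (-5.03 ± 0.46), a gene at 3 counts or fewer in 41 ewes of the series. RBP4 was at -1.73 ± 0.29. Of all genes, 1842 were lower and 1477 higher there. Compared to the natural follicular phase, 6 were lower in luteal Belclare ewes and 8 in luteal Fur ewes, beside 1601 and 1553 of all genes.

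Upstream signalling genes of the interleukin-6, interleukin-1 and NF-kB pathways were covered by 13 identifiers, all tested. In Fur compared to Suffolk ewes 5 were lower in the natural follicular phase, with a median log2 fold change of -0.43, and 8 in the luteal phase, with a median of -0.75. None was higher, where 9.62% and 13.8% of all genes were DEGs. CEBPB, a C/EBP factor of acute-phase promoters, was at -1.17 ± 0.24 and -0.83 ± 0.25 in these phases. The interleukin-6 family cytokine LIF was at -2.61 ± 0.62 in the luteal phase. In Fur and in NWS compared to natural follicular Belclare ewes 4 of the 13 were lower, where 15.7% and 13% of all genes were DEGs, and LIF was at -1.02 ± 0.33 and -1.29 ± 0.30. In luteal Fur compared to Belclare ewes 3 were lower, where 16.3% of all genes were DEGs. In Belclare, luteal ewes had 3 lower and 1 higher than synchronised follicular ewes, where LIF was at -2.63 ± 0.26 and the interleukin-6 receptor IL6R at 0.95 ± 0.17. Luteal Belclare ewes also had 3 lower and 2 higher than natural follicular ewes. Of all genes, 22.4% and 19.7% were DEGs in these comparisons.

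Genes of serum amyloid A receptors and HDL lipid handling were covered by 7 identifiers, without the receptors FPR2, SCARB1, TLR2 and TLR4, for which no identifier was named. In Fur compared to Suffolk ewes 1 was lower in the natural follicular and 2 in the luteal phase, beside 752 and 1096 of all 14811 genes lower. In either direction 9.62% and 13.8% of all genes were DEGs. A list of 7 is too short to set such counts against those shares. In Fur and NWS compared to natural follicular Belclare ewes 3 were lower, among them the cholesterol exporter ABCG1 (-1.42 ± 0.31 and -1.23 ± 0.35), and in luteal Fur compared to Belclare ewes 1 was lower, where 15.7%, 13% and 16.3% of all genes were DEGs. In Belclare 3 were lower in the luteal phase than in either follicular phase, with ABCG1 at -2.23 ± 0.25 against the synchronised follicular phase, where 22.4% and 19.7% of all genes were DEGs. APOA1, the main HDL protein, ranged from 1.14 to 24.3 CPM over all ewes.

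Markers of other cell types moved with several of these differences. Of all genes, 9.62% and 13.8% were DEGs in natural follicular and luteal Fur compared to Suffolk ewes, 15.7% and 16.3% in Fur compared to Belclare, 13% in natural follicular NWS compared to Belclare and 22.4% in luteal compared to synchronised follicular Belclare ewes. Of 16 epithelial and mucus identifiers, 10 were lower in natural follicular Fur compared to Suffolk ewes and 6 in luteal ewes, and 15 and 13 were lower in Fur compared to Belclare in those phases. In natural follicular NWS compared to Belclare ewes, where both copies were lower, 14 of the 16 were lower and all 6 smooth muscle identifiers higher. In luteal NWS compared to Belclare ewes, where ENSOARG00000009865 was lower and 11.6% of all genes were DEGs, 8 of the 16 were lower and 5 of the 6 higher. Their summed level had group medians of 3080 to 5978 CPM in the Irish and 2122 to 2956 CPM in the Norwegian groups. In Belclare luteal compared to synchronised follicular ewes, where ENSOARG00000009865 was lower, 3 of the 16 were lower and 2 higher, with a median log2 fold change of -0.02. Of 6 smooth muscle identifiers 1 was higher in natural follicular Fur compared to Suffolk ewes, and all 6 were higher in the luteal phase and in Fur compared to Belclare. Lymphoid genes were lower for 2 of 13 and 12 of 13 identifiers in natural follicular and luteal Fur compared to Suffolk ewes, and neutrophil and myeloid genes for 1 of 10 and 6 of 10, with 1 of 10 higher in the natural follicular phase. In luteal Belclare ewes 5 lymphoid genes were higher than in the synchronised follicular phase, and none lower. The part of these cell types in the SAA1 differences was not tested.

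Of 7 plasma protein genes listed for hepatocytes (the hepatocyte list), 6 had an identifier, and albumin (ALB) had none. Which cells held their RNA in the cervix was not tested. These 6 summed to 6.70 to 41.9 CPM over all ewes, of which APOA1 and the fibrinogen chain FGB reached 24.3 and 20.6 CPM. Group medians of this sum ran from 9.82 CPM in synchronised follicular NWS ewes to 27.96 CPM in luteal Suffolk ewes. They lay within the range of the group medians of the summed copies, 1.98 to 28.7 CPM. No ewe exceeded 4 CPM of prothrombin (F2), and TTR was at 3 counts or fewer in 41 ewes. Of the 5 tested, 0 to 2 were lower by edgeR and none higher in the comparisons in which other acute-phase genes are counted above, where 9.62 to 22.4% of all genes were DEGs. All 6 identifiers are also in the acute-phase list, and APOA1 is in the HDL list too, so the counts and sums of these lists are not separate.

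Deviations of each ewe from its group mean were then compared between the summed SAA1 level and the summed level of each list, on the log2 scale over 114 ewes. Over 24 correlations in the family, the sum correlated with the epithelial and mucus list (r = 0.511, rho = 0.485, permutation p = 1e-05 and 2e-05, adjusted 6e-05 and 0.00016). The first p is the smallest the permutations can give, and r was 0.494 without the 2 ewes farthest from the median of the list. Here and below, ewes were left out by the level of the list alone, not by that of SAA1. It correlated with the acute-phase list (r = 0.482, rho = 0.490, permutation p = 1e-05 for both, adjusted 6e-05 and 0.00012), with r = 0.478 without the 2 farthest ewes. ENSOARG00000009865 alone had rho = 0.163 with the acute-phase list (permutation p = 0.103, adjusted 0.154) and r = 0.234 (permutation p = 0.0225, adjusted 0.0490). The sum also correlated with the signalling list (r = 0.303, rho = 0.342, permutation p = 0.00266 and 0.00069, adjusted 0.0106 and 0.00331), with r = 0.296 without the 2 farthest ewes. With the smooth muscle list the relation was negative (r = -0.252, rho = -0.235, permutation p = 0.0102 and 0.0169, adjusted 0.0306 and 0.0452), with r = -0.230 without the 2 farthest. The lymphoid, neutrophil and HDL lists did not pass with the sum after adjustment, with r of 0.190, 0.174 and 0.116. ENSOARG00000009865 alone had r = 0.224 with the lymphoid list (permutation p = 0.0202, adjusted 0.0485) and rho = 0.209 (permutation p = 0.0316, adjusted 0.0690). Its r was 0.130 without the 2 farthest ewes. The lymphoid sum was mostly the immunoglobulin gene IGHG3, whose identifiers had medians of 1063 and 322 CPM, against 1.01 to 10.4 CPM for the other members. Other sums were also weighted to abundant members. In the signalling list TYK2, TRAF3IP2 and IKBKB had the highest medians, 217, 95 and 75.6 CPM, against 7.54 CPM for LIF. The highest in the acute-phase list were C3 (196 and 118 CPM) and RBP4 (119 CPM). In the neutrophil and myeloid list CYBA had 126 CPM, against 0.424 and 0.776 CPM for the CXCR2 identifiers. Which members carried the correlations was not tested. With the hepatocyte list r was -0.015 and rho was 0.087 (permutation p = 0.889 and 0.382, adjusted 0.927 and 0.437), and r was 0.069 without the 2 farthest.

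Of 14809 other genes, 15 had a Spearman rho above 0.5 with the summed SAA1 level over the same deviations of 114 ewes, where the median gene had -0.006 and the 99th percentile was 0.381. The copies shared library depth with every gene compared, and the values are a description without a test. The 10 nearest genes included 5 with names. These were VNN1, a pantetheinase (rho = 0.561), both identifiers of C3 (0.557 and 0.550), BCL2L15, a BCL2 family member (0.557), and WNT2, a secreted signalling ligand (0.514). The 2 nearest, ENSOARG00000002754 and ENSOARG00000005049 (0.608 and 0.594), had no name. Most SAA1 counts fell on ENSOARG00000009847, so genes chosen for nearness to the sum are largely chosen for nearness to that copy. The copies had a rho of 0.282 with each other.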

How the data were processed

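The authors trimmed reads with BBDuk, used STAR 2.6.1b for alignment to Oar_v3.1, and summarised the pairs that mapped uniquely over Ensembl gene models by featureCounts (Subread 1.6.3). They deposited raw counts per gene, 1 library a ewe, from stranded poly-A libraries. The strand setting of the counting is not given in the sources used here.

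From these counts, the 14811 genes that reached 1 CPM in 10 or more synchronised follicular ewes (of 39) were tested. Each comparison was fitted on the ewes compared with edgeR 4.0.16 in R 4.3.3 (TMM, quasi-likelihood F test, Benjamini-Hochberg adjustment). A call needed an adjusted p under 0.05 and a fold change above 1.5. The standard error is the size of the log2 fold change over the square root of F. The scripts were tested on simulated data. Levels are CPM with TMM factors over 114 ewes, and log2 CPM used a prior count of 2. Ratios of the copies used a pseudocount of 0.5 counts. Correlations used 100000 permutations or all of them. Alternatives were DESeq2 1.42.0 (test and size factors), no low count filter, at least 10 counts in every ewe compared, a robust fit, 1 fit over 12 groups, a replicate block, exact permutation and leaving out single ewes.

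Groups came from the labels, and 1 of 115 libraries whose labels conflict was left out. Each library is taken as 1 ewe, so p-values measure the spread between ewes. The copies and the lists were chosen with earlier results of these data known. Named genes were both copies, listed genes called where the summed copies were called, and the 10 genes nearest to the sum. Names came from the study's tables, which name 1352 identifiers. Tables in which the study gives fold changes were read for names only. No genome of this build was used here, so neither coordinates nor sequences are given.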

Additional observations from a re-analysis of the deposited data

Results flagged for a closer look

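Within groups of 4 to 10 ewes, 33 sets of values (each copy and their sum in 11 groups) were searched for an ewe set apart from its group by Dixon's 95% limit, and 10 were found. That limit gives about 1 in 20 for independent, normally distributed values. The search used CPM on a linear scale, on which a few high ewes stretch a group. The sum also largely repeats ENSOARG00000009847, so the number found is not set against that rate. The 10 values come from 6 ewes. Natural follicular Belclare replicate 9 had 185 CPM of ENSOARG00000009847, with the next ewe at 58.6 CPM, and 193 CPM of the summed copies. Natural follicular Suffolk replicate 9 had 138 CPM of ENSOARG00000009847, with the next at 40.3 CPM, and 149.8 CPM of the sum. Luteal Suffolk replicate 7 had 81.0 CPM of ENSOARG00000009847, with the next at 32.5 CPM, and 81.9 CPM of the sum. Luteal Suffolk replicate 4 had 5.85 CPM of ENSOARG00000009865, with the next at 1.09 CPM. Synchronised follicular Fur replicate 3 had 17.8 CPM of ENSOARG00000009847, with the next at 6.94 CPM, and 19.1 CPM of the sum. Luteal Fur replicate 4 had 4.93 CPM of ENSOARG00000009847, with the next at 2.66 CPM. Every one of these was the highest ewe of its group.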

How the results depend on the processing

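DESeq2 size factors, no low count filter, a robust fit and no fold threshold changed no call of 63 values each. A minimum of 10 counts in every ewe left 39 values, with no call changed. Values below are log2 differences in the order ENSOARG00000009847, ENSOARG00000009865, sum. The cause of the changes was not tested.

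With the replicate block, calls were lost in natural follicular Fur compared to Suffolk (-2.13, -2.40 and -2.02), for ENSOARG00000009865 in luteal NWS compared to Belclare (-2.15) and for ENSOARG00000009847 in luteal compared to natural follicular Belclare ewes (-1.38). The numbers did not pair the ewes, since 0 of 18 comparisons had every pair above 0.1 and the median correlation was -0.018.

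Permutation p was adjusted over the 18 comparisons of each copy or of the sum, not over all genes. By exact permutation, calls were gained for ENSOARG00000009865 in natural follicular Belclare compared to Suffolk (1.90). They were also gained for this copy in luteal compared to natural follicular Suffolk ewes (-2.16), and for the sum in natural follicular NWS compared to Suffolk (-1.82). Calls were lost for ENSOARG00000009865 in natural follicular Fur compared to Suffolk (-1.74), for the sum in luteal Fur compared to Suffolk (-1.5) and in luteal compared to natural follicular Fur ewes (-1.03), and for ENSOARG00000009847 in luteal compared to natural follicular Belclare ewes (-1.40). DESeq2's test gained NWS compared to Suffolk in the natural follicular phase (ENSOARG00000009847 -2.57, sum -2.46), and luteal compared to natural follicular ewes in Fur (ENSOARG00000009847 -1.26) and Suffolk (ENSOARG00000009865 -2.10). A fit over 12 groups gained the first (-2.54 and -2.44) and the last (-2.08), and lost the sum in luteal compared to synchronised follicular Belclare (-1.05) and to natural follicular Fur ewes (-1.10).

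Without single ewes, natural follicular Fur compared to Suffolk ranged from -3.07 to -1.98, -2.48 to -1.66 and -2.97 to -1.94, and NWS compared to Suffolk from -2.85 to -1.65, -2.04 to -1.29 and -2.69 to -1.60. Luteal Fur compared to Suffolk ranged from -3.31 to -1.96, -1.07 to 0.64 and -2.84 to -1.71, and NWS compared to Suffolk from -1.80 to -0.52, -1.59 to -0.08 and -1.79 to -0.59. In the other comparisons only the ewes set apart were left out, a choice made after seeing the data. Luteal compared to natural follicular Suffolk ewes then ranged from -2.19 to -0.25, -3.29 to -1.66 and -2.18 to -0.39, ENSOARG00000009847 was -0.97 in Belclare and -1.60 in Fur.

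With a prior count of 0.5 the copies correlated in luteal NWS ewes (r = 0.899, permutation adjusted p = 0.0443). Of the 10 genes nearest to the sum, Pearson's r shared 6, and synchronised follicular, natural follicular and luteal ewes alone shared 2, 2 and 1. ENSOARG00000009865 lay at 3 counts or fewer in 15 ewes, which limits its precision.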

Other observations

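A further library has a title of a natural follicular Suffolk ewe and other labels of an induced luteal one, so it entered no comparison. It held 17 counts of ENSOARG00000009847 and 1 of ENSOARG00000009865, of 15387419 in all.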
